A study of Mus musculus with 16 samples.

Results

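The data described here are the ChIP-seq libraries titled H3K27ac, acetylation of histone H3 at lysine 27, in endosteal mesenchymal stromal cells, the connective tissue cells that line the inner bone surface. They are 4 of the 16 libraries of the series: 2 from WT mice, which are Bap1fl/fl and keep the gene, and 2 from Bap1 cKO mice, which are Prx1-cre;Bap1fl/fl, all C57BL/6J. Prx1-cre is active in limb mesenchyme, so the deletion is not limited to the endosteum, and no source used here gives the age or sex of the mice. Counts were taken by the library title and summed over the 4 kb around the start of each gene, from 2 kb upstream to 2 kb downstream. This gave a promoter count for 3789 autosomal genes of the 3925 genes measured, 1849 of them marked UP and 1940 marked DOWN by the authors, on a criterion that no source used here states. The genes are therefore a selection, and neither that division nor a gene list drawn from it is independent evidence of a direction.

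H3K27ac is written by the acetyltransferases p300 and CBP and marks active promoters and enhancers. The same lysine can be trimethylated by Polycomb repressive complex 2 (H3K27me3), and a single histone tail cannot carry both. BAP1 cleaves the ubiquitin that Polycomb repressive complex 1 places on histone H2A (H2AK119ub1), and H3K4me3 is the trimethylation found at the starts of active genes.

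The summed bins held 3011826 and 3852711 counts in WT replicates 1 and 2 and 3951507 and 3680062 in cKO replicates 1 and 2, with a median of 371 to 472 counts per promoter. Levels are given as CPM, the usual count-per-depth unit, relative to the autosomal counts after TMM scaling. Libraries of a genotype correlated at r = 0.971 in WT and 0.970 in cKO across 3731 promoters, where genes are not independent replicates, and their differences exceeded counting error (a ratio of chi-square to degrees of freedom of 2.45 and 3.65). The antibody field of these 4 libraries names anti-trimethyl-H3K4, and that of the libraries titled H3K4me3 names anti-acetyl-H3K27, so the mark is named by title throughout. Whether the 2 libraries of a genotype are from separate mice is not stated in the labels, and the p-values rest on a spread between libraries that may be technical. The Bap1 locus was not analysed here. Of 14 stromal markers 9 were measured, with summed levels of 2422 and 2130 CPM in WT and 792 and 778 CPM in cKO. Pdgfrb, Col1a2, Col3a1, Eng, Twist2, Cxcl12 and Ly6a were lower, while Col1a1 and Thy1 did not pass the test. Over all promoters tested 28.7% were lower. Which markers were measured depends on the authors' selection of genes, so absent markers say nothing about the cells. Lcp1 was the 1 blood marker of 10 measured, with WT levels of 53.7 and 38.4 CPM and cKO levels of 14.7 and 49.4, and of 7 endothelial markers 0 were measured. Tubb3, of nerve, was lower (-0.68, adjusted p = 0.024), and Des, of muscle, did not pass the test (-0.68, adjusted p = 0.054). On longer marker lists 1 of 4 blood genes (Fcer1g) and 1 of 2 endothelial genes (Eng, which stroma also expresses) were lower, against the same 28.7%. Summed levels of the blood genes were 373 and 368 CPM in WT and 287 and 265 in cKO. For endothelium they were 208 and 209 against 78.6 and 99.9. In bulk chromatin, fewer cells of a type and less of the mark per cell cannot be told apart, and the part of cell composition in the results was not tested.

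H3K27ac changed in both directions at most promoters. Of 3761 autosomal promoters with enough counts to test, 1189 were higher in cKO, 31.6% of those tested, and 1080 were lower, 28.7% (edgeR's quasi-likelihood test, Benjamini-Hochberg adjusted p at or under 0.05), which is 60.3% in either direction. "Higher", "lower", "rose", "fell" and "called" refer to this test. Promoters that rose had a median level of 110 CPM in WT and 220 CPM in cKO, and those that fell had 210 and 101.2. Their median log2 changes were 0.96 and -0.88, against 0.02 over all promoters tested. A log2 change of at least 1 was reached by 547 of the higher and 442 of the lower promoters, and of at least 2 by 77 and 81. The calls largely followed the authors' division: of 1833 tested promoters marked UP 1126 rose and 64 fell, and of 1928 marked DOWN 63 rose and 1016 fell. Over all promoters tested both cKO libraries lay above both WT libraries at 41.0% and below both at 38.8%, and since the calls rest on the same libraries, nearly all called promoters (1188 and 1076) are among them. Without WT replicate 1 the counts were 973 higher and 714 lower.

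The direction differed by chromosome. On chromosomes 4, 7, 11 and 12 together 688 of 1144 promoters rose and 118 fell, while on the other autosomes 501 of 2617 rose and 962 fell. Chromosome 4 had 214 higher and 36 lower of 321 promoters, and chromosome 19 had 12 higher and 73 lower of 135. The outer 1 kb flanks of the windows, away from the gene starts, had a median change of the same sign on every autosome except 13 (promoters -0.16, flanks 0.03). Their median log2 change was 0.48 on chromosome 4, 0.45 on 7, 0.33 on 11 and 0.38 on 12, and -0.51 on 19, -0.47 on 6 and -0.41 on 15. A copy number difference and a broad change of the mark cannot be told apart in these windows. Calls of promoters, window segments and the other marks are therefore also given on a regional scale, relative to the flanks of the 20 nearest genes on each side. This offset ran from -0.80 to 0.93 between genes. Peak widths, and the comparisons of parts of the window or of 2 marks with each other, were not put on this scale. On that scale 835 promoters were higher, 22.2%, and 931 lower, 24.8%. Of these, 712 and 792 were called the same way without the offset, and 2 were called the opposite way.

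**Figure D1:**
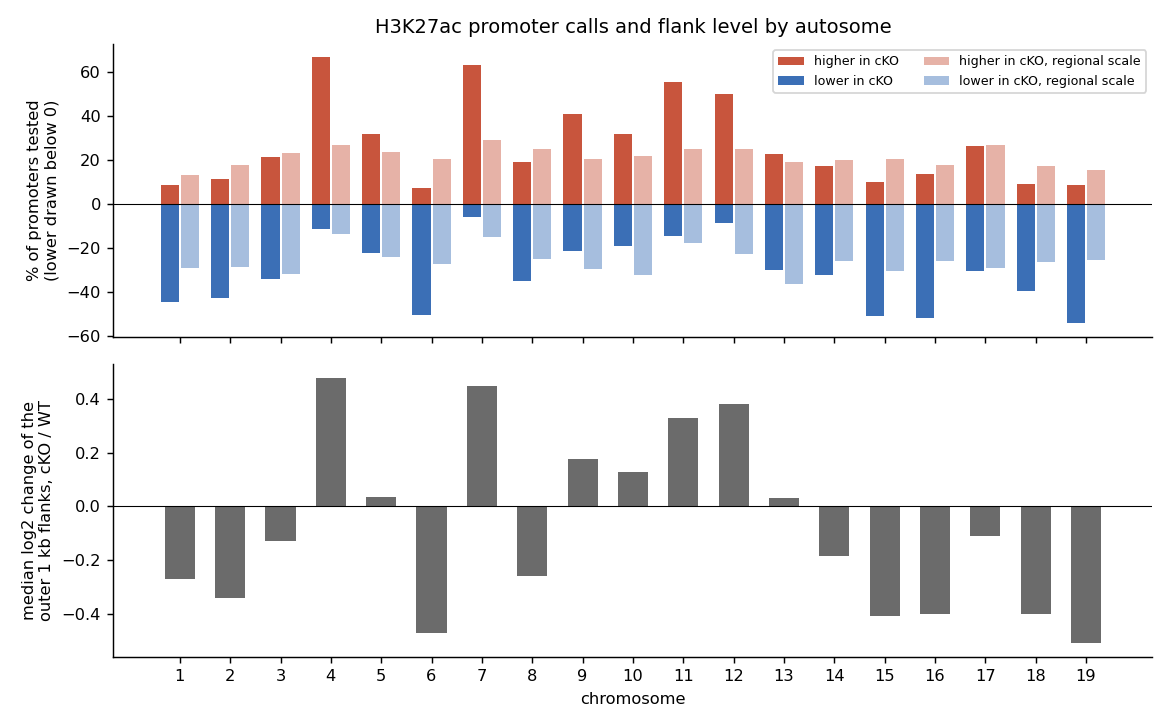
Promoter calls by autosome. The upper panel gives the share of tested promoters that were higher (red, above 0) or lower (blue, below 0) in cKO, in full colour without and in pale colour with the regional offset, and the lower panel the median log2 change of the outer 1 kb flanks. Chromosomes 4, 7, 11 and 12 have the tallest red bars and flank medians of 0.33 to 0.48, and the pale bars are closer to each other across chromosomes.

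The strongest statistical gains went from little H3K27ac to levels of active promoters. Kctd15, coding for a BTB-domain protein of neural crest development, had 20.7 and 23.7 CPM in the WT libraries and 395 and 429 CPM in the cKO libraries. The 2 genotypes were far apart, with a log2 change of 4.21 ± 0.19 (SE), an 18.5-fold difference (adjusted p = 3.39e-18), and 3.69 on the regional scale. Foxd1, a forkhead transcription factor of kidney and other stroma, had 27.2 and 23.7 CPM in WT and 341 and 347 in cKO (3.76 ± 0.19, adjusted p = 4.38e-17). Gsc, the homeobox gene goosecoid, had 34.3 and 18.1 CPM in WT and 614 and 585 in cKO, a 23.3-fold difference (4.54 ± 0.21). Irx1, an Iroquois homeobox gene, had 19 and 21.5 CPM in WT and 415 and 284 in cKO (4.10 ± 0.22), and here the cKO libraries also differed from each other. At these promoters the WT level was below the median of 126 CPM over all autosomal promoters, and the cKO level was above the median of 122.

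The other promoters of this group belong to genes of varied function. Cd24a, a glycoprotein of the surface of progenitor cells, already had 154 and 164 CPM in WT and rose to 1099 and 996 (2.72 ± 0.14), the highest cKO level among the 12 promoters of lowest p in this direction. Vit, coding for the matrix protein vitrin, went from 54.0 and 62.8 CPM to 692 and 563 (3.42 ± 0.17). Epha7, an ephrin receptor, went from 63.2 and 52.8 CPM to 546 and 418 (3.06 ± 0.18), and Jup, the junction protein plakoglobin, from 41.4 and 38.1 to 394 and 308 (3.14 ± 0.19). Sox11 and Pax8, transcription factors of neural progenitors and of thyroid and kidney, rose by 3.22 ± 0.20 and 3.11 ± 0.20 on the log2 scale. Slc16a6, a monocarboxylate transporter gene, rose by 3.09 ± 0.18 and Hdgfl3 by 3.60 ± 0.23. All 12 remained higher on the regional scale, by log2 changes of 2.39 at Epha7 to 4.06 at Gsc.

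The promoters that fell with the lowest p carried strong H3K27ac in WT cells. Col1a2, a chain of type I collagen, the main protein of bone matrix, had 567 and 566 CPM in the WT libraries and 50.5 and 67.3 CPM in the cKO libraries. Its log2 change was -3.27 ± 0.17 (adjusted p = 4.69e-17) and -2.67 on the regional scale. Runx2, the transcription factor that commits cells to the osteoblast lineage, had 386 and 370 CPM in WT and 73.8 and 67.0 in cKO (-2.42 ± 0.17, adjusted p = 5.95e-14, and -2.41 on the regional scale). Fosl1, coding for the AP-1 protein Fra-1, had the highest WT levels of the group at 869 and 934 CPM and kept 252 and 201 CPM in cKO (-1.99 ± 0.14). These genes were chosen by lowest p among promoters whose genotypes do not overlap, so the distance between genotypes follows from the choice.

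Ccn4, a matricellular Wnt target, fell by 2.70 ± 0.18 on the log2 scale, from 478 and 397 CPM to 77.3 and 57.5. Emilin1, an elastic fibre glycoprotein, changed by -2.5 ± 0.18 from 365 and 297 CPM to 58.9 and 58.1. Srgap3, of the Slit and Robo pathway, changed by -2.74 ± 0.17, and Zfhx4, a zinc finger homeobox gene, by -2.52 ± 0.18. Cela1, an elastase gene, St6galnac6, a sialyltransferase gene, and Hhipl1 changed by -2.83 ± 0.20, -2.82 ± 0.20 and -2.11 ± 0.16. The 10 promoters of this group described here remained lower on the regional scale, by log2 changes of -1.79 at Fosl1 to -2.99 at Emilin1.

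**Figure D2:**
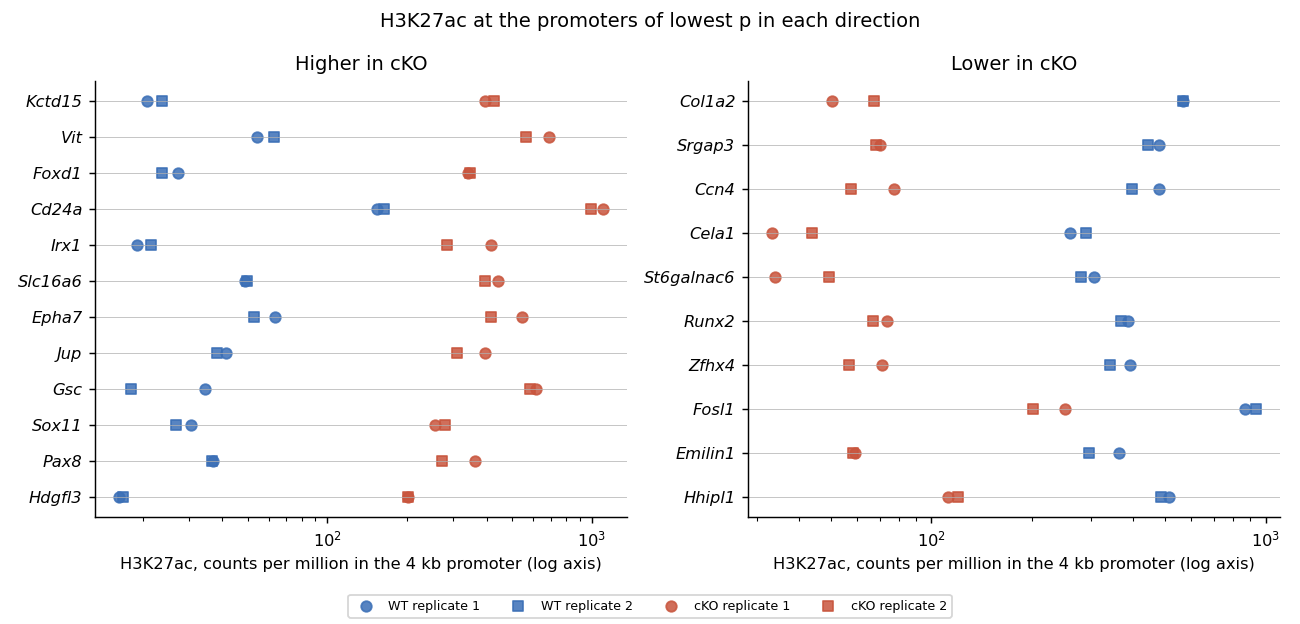
H3K27ac level of promoters with the smallest p for a gain or a loss, in CPM on a log axis, with a point for each library (blue, WT; red, cKO; circles, replicate 1; squares, replicate 2). Genes were drawn only if the cKO points lay wholly to one side of the WT points, so that separation follows from the choice. The higher genes start from 16.3 to 164 CPM in WT and the lower genes from 259 to 934.

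The promoter sequences of 2 genes that rose and 2 that fell are shown because the counts of these genes were measured over them. Each line is the 250 bases before the RefSeq start in GRCm38.p6, written 5′ to 3′ on the gene's strand: Kctd15 at chr7:34655510-34655759 (minus strand), Foxd1 at chr13:98353995-98354244, Col1a2 at chr6:4505368-4505617 and Pparg, the regulator of fat cell formation, at chr6:115360894-115361143 (all 3 plus strand). Capitals mark CCAAT, the box bound by NF-Y, and GGGCGG, the GC box bound by Sp1, on either strand, which were among 8 short motifs searched.
Kctd15: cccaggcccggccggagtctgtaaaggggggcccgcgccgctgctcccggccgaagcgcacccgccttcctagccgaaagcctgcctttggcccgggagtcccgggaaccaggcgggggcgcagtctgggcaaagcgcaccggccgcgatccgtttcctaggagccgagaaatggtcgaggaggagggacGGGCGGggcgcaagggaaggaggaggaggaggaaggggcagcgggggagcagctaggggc
Foxd1: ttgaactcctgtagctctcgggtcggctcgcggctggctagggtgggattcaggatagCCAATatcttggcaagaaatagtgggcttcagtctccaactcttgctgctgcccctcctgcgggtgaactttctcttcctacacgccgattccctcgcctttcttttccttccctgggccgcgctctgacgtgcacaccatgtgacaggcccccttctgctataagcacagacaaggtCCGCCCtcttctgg
Col1a2: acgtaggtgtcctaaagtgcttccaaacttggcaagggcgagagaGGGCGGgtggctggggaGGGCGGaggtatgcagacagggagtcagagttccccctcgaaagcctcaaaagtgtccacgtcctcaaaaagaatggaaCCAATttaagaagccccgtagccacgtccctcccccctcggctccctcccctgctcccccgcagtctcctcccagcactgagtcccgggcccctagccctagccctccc
Pparg: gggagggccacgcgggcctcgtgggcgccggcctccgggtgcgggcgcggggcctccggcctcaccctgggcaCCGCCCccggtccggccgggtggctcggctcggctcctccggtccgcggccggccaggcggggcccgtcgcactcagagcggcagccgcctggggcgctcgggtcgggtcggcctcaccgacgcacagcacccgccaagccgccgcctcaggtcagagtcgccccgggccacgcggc
CCAAT was found in Foxd1 and Col1a2, and GGGCGG in all 4. Over 32851 RefSeq promoters of this length, 33.8% held CCAAT and 32.7% GGGCGG, so a match says little about a promoter. The TATA box TATAAA, the AP-1 site TGANTCA, the RUNX site TGTGGT, the ETS site CCGGAAG, the E-box CACGTG and the TEAD site GGAATG were also searched on both strands and none was found in these 4 windows, which says only that those letters are not there. GC content was 72.4% in Kctd15, 57.2% in Foxd1, 62.0% in Col1a2 and 82.4% in Pparg. A sequence within 500 bp of the measured start was matched for 2471 of the 3789 promoters, 65.2%, so a comparison of GC content or motifs between higher and lower promoters is void.

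Genes of bone-forming cells lost H3K27ac or did not pass the test. Of 9 osteoblast genes measured, all marked DOWN, 0 rose and 6 fell, against 31.6% and 28.7% of all promoters. Among the 1928 tested promoters marked DOWN 63 rose and 1016 fell. The osteoblast genes had a median log2 change of -1.20 against 0.02 over all promoters, and 7 of them fell on the regional scale. Beside Runx2 and Col1a2 the 6 included Wnt10b, a ligand of bone formation (202 and 210 CPM in WT, 43.1 and 52.7 in cKO, -2.11 ± 0.20), and Spp1, coding for osteopontin (200 and 134 CPM in WT, 56.8 and 52.1 in cKO, -1.61 ± 0.21). The others were Msx2, a homeobox regulator (-1.20 ± 0.19), and Tnfrsf11b, coding for the osteoclast inhibitor osteoprotegerin (-1.11 ± 0.21). Alpl, the bone alkaline phosphatase, and Tnfsf11, coding for RANKL, had log2 changes of -0.53 ± 0.37 and -0.64 ± 0.30, with adjusted p of 0.216 and 0.065. Col1a1, the other chain of type I collagen, had 233 and 154 CPM in WT and 175 and 147 in cKO, so that the genotypes overlapped (-0.26 ± 0.18, adjusted p = 0.22), and was lower on the regional scale (-0.67, adjusted p = 0.00331).

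Collagens and other matrix genes mostly fell as well. Of 20 collagen chain genes, 15 of them marked DOWN, 1 rose and 12 fell, against 31.6% and 28.7% of all promoters. Their median log2 change was -0.64, and 1 rose and 11 fell on the regional scale. The falls included Col6a3, of type VI collagen, from 320 and 224 CPM to 46.5 and 38.6 (-2.67 ± 0.20), Col3a1, of type III collagen, from 262 and 196 to 50.5 and 53.2 (-2.14 ± 0.20), and Col8a1 (-1.77 ± 0.23). Col11a1, a cartilage collagen, was the gene that rose, from 43.5 and 59.9 CPM to 120 and 109 (1.14 ± 0.23). Of 32 matrix proteins and matrix enzymes measured, 22 of them marked DOWN, 31 were tested, 6 rose and 19 fell. Their median log2 change was -0.49, and 7 rose and 17 fell on the regional scale. Thbs1, thrombospondin 1, fell from 645 and 608 CPM to 241 and 210 (-1.47 ± 0.14), and Postn, periostin of the bone surface, from 118 and 103 to 38.1 and 46.2 (-1.39 ± 0.23). The 6 that rose, chosen here after their values were seen, were Vit, Fbn2 and Fbln5, of elastic fibres (1.89 ± 0.24 and 1.86 ± 0.26), Tnc, tenascin C (1.08 ± 0.19), Emilin2 and Timp3.

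Genes of the neighbouring lineages did not move as a block. Of 13 adipocyte genes, 9 of them marked DOWN, 3 rose and 7 fell, against 31.6% and 28.7% of all promoters. Their median log2 change was -0.66, and 2 rose and 7 fell on the regional scale. Pparg had 263 and 220 CPM in WT and 46.0 and 47.5 in cKO (-2.37 ± 0.19, adjusted p = 2.46e-12). Fabp4, a fatty acid carrier, fell by 2.35 ± 0.22 and Plin4, a lipid droplet protein, by 1.58 ± 0.16 on the log2 scale, and Zfp423, a preadipocyte factor, by 1.83 ± 0.19. Klf15, a factor that rises late in adipogenesis, went up from 34.6 and 55.4 CPM to 73.3 and 72.9 (0.69 ± 0.27). Of 7 cartilage and tendon genes, 6 of them marked UP, 3 rose and 0 fell. The 3 were Col11a1, Comp, a cartilage matrix protein (0.80 ± 0.17), and Sox9, the chondrocyte regulator (0.77 ± 0.15, adjusted p = 3.63e-05). On the regional scale Sox9 was not called (0.11, adjusted p = 0.585), while Scx, the tendon factor, was (0.34, adjusted p = 0.0497 against 0.999 without the offset).

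Transcription factor genes were called in both directions. Of 18 limb and mesenchyme factors, 11 of them marked DOWN, 4 rose and 10 fell (4 and 9 on the regional scale), against 31.6% and 28.7% of all promoters. Those that rose were Gsc, Foxd1, Foxf1, a forkhead factor of visceral mesenchyme (47.9 and 24.7 CPM in WT, 154 and 214 in cKO, 2.36 ± 0.26), and Eya2 (54.0 and 46.5 CPM, 203 and 179, 1.93 ± 0.20). Eya4, of the same family, went the other way, from 361 and 296 CPM to 76.5 and 77.5 (-2.09 ± 0.17). So did Shox2, a homeobox gene of limb growth (291 and 305 CPM, then 114 and 79.7, -1.62 ± 0.18), and Snai1, of the mesenchymal programme (-1.53 ± 0.21). Of 11 transcription factors known as Polycomb targets in other cells 4 rose and 4 fell (4 and 3 on the regional scale): Irx1, Pax8, Otx1, of the forebrain (2.47 ± 0.17), and Gata2, of blood progenitors (1.22 ± 0.27), against Foxa1, of endoderm (-1.45 ± 0.21), Dlx1, Dlx2 and Gata6. These counts are near the 31.6% and 28.7% over all promoters. Of 5 Hox genes, 4 of them marked DOWN, 0 rose and 3 fell. Hoxc13 had 243 and 290 CPM in WT and 47.0 and 31.3 in cKO (-2.76 ± 0.21), and Hoxc11 213 and 234 against 42.3 and 45.4 (-2.35 ± 0.20). Hoxc10 fell less, by 0.72 ± 0.14 on the log2 scale, and Hoxc6 had 600 and 569 CPM in WT and 764 and 648 in cKO (0.27 ± 0.13, adjusted p = 0.0748). With the regional offset Hoxc6 and Hoxa2 were higher, and Hoxc6 was also called without cKO replicate 2 (0.42).

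Genes that stromal cells use to support blood cells fell more often than they rose. Of 19 niche factors 2 rose, 10 fell and 7 were not called, against 31.6% higher and 28.7% lower over all promoters. Their median log2 change was -0.56, and 3 rose and 10 fell on the regional scale. Of the 19, 14 were marked DOWN, and of all 1928 tested promoters marked DOWN 63 rose and 1016 fell. Vcam1, an adhesion molecule for blood progenitors, had 140.6 and 126 CPM in WT and 35.7 and 39.4 in cKO (-1.83 ± 0.22). Pdgfrb, a receptor of stromal cells, fell from 450 and 400 CPM to 96.7 and 89.7 (-2.19 ± 0.16), and Cxcl12, the chemokine that retains blood stem cells, from 229 and 166 to 93.8 and 102 (-1.01 ± 0.19). Kitl, coding for stem cell factor, had 170 and 157 CPM in WT and 104 and 117 in cKO (-0.56 ± 0.18, adjusted p = 0.00874), a call that was lost without WT replicate 1 (-0.47). Jag1, a Notch ligand, was higher, at 127 and 108 CPM in WT and 363 and 266 in cKO (1.42 ± 0.17), and so was Thpo, the thrombopoietin gene, whose 4 kb overlaps that of another gene (1.61 ± 0.21). Of 8 cytokine and inflammatory genes 3 rose and 4 fell (2 and 4 on the regional scale). Cxcl1, a neutrophil attractant, fell from 287 and 216 CPM to 76.2 and 57.8 (-1.90 ± 0.19), and C3, a complement component, rose from 34.3 and 46.5 to 135 and 106 (1.57 ± 0.24). Of 11 interferon response genes, all marked DOWN, 0 rose and 7 fell (6 on the regional scale), beside 63 and 1016 of the 1928 promoters marked DOWN. Those that fell included Ifit2 (-1.81 ± 0.21), B2m, the light chain of MHC class I (-1.41 ± 0.17), and Ifitm3 (-1.23 ± 0.17).

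Among signalling genes the guidance list held more gains than losses. Of 29 ephrins, semaphorins and other guidance genes 13 rose and 5 fell, against 31.6% and 28.7% of all promoters. Their median log2 change was 0.31, 14 rose and 4 fell on the regional scale, and 18 of the 29 were marked UP. The ephrin ligands Efna1, Efna3, Efna4, Efna5 and Efnb2 were all higher, by 0.57 to 1.34 on the log2 scale. Sema3f, a secreted semaphorin, had 27.9 and 22.6 CPM in WT and 187 and 150 in cKO (2.75 ± 0.23), and Ntn4, a netrin of basement membranes, 103 and 104 against 646 and 487 (2.46 ± 0.16). Of 19 BMP and TGF-beta genes, 12 of them marked UP, 8 rose and 5 fell (7 and 5 on the regional scale), against the same 31.6% and 28.7%. The secreted BMP antagonists Grem1 (1.5 ± 0.21), Nog (1.28 ± 0.28) and Chrd (1.64 ± 0.21, in a shared window) rose, while Fst had a log2 change of -0.05. The receptor Acvr2b rose by 1.95 ± 0.20, and Inhba, an activin subunit, and Eng, a TGF-beta co-receptor, changed by -1.09 ± 0.16 and -1.58 ± 0.21. Of 23 Wnt genes 6 rose and 5 fell (5 and 5 on the regional scale), no larger shares than the 31.6% and 28.7% over all promoters. Ror2, a Wnt5a receptor, had 39.4 and 42.6 CPM in WT and 310 and 280 in cKO (2.85 ± 0.19), Axin2, a feedback target of the pathway, 35.0 and 42.8 against 166 and 194 (2.21 ± 0.21), and Fzd2, a receptor, 212 and 267 against 619 and 575 (1.32 ± 0.15, and 0.49 on the regional scale). Wnt10b and the antagonist Sfrp1 (-1.30 ± 0.32) fell.

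For genes of the chromatin machinery and of general functions the scale decided much of the count. Of 7 Polycomb and BAP1 machinery genes, 5 of them marked UP, 4 rose and 1 fell, against 31.6% and 28.7% of all promoters. On the regional scale 1 rose and 0 fell, against 22.2% and 24.8%. Phf19, an accessory subunit of Polycomb repressive complex 2, was higher on both, at 49.9 and 57.3 CPM in WT and 193 and 182 in cKO (1.80 ± 0.20, and 2.21 on the regional scale). Foxk2, which binds BAP1, and Pcgf2, a subunit of Polycomb repressive complex 1, rose by 1.01 ± 0.16 and 0.77 ± 0.14 but were not called with the offset (0.35 and 0.03). The acetyltransferase genes Kat2a and Kat8 rose by 1.02 ± 0.16 and 0.70 ± 0.18 and were not called with it either (0.24 and 0.02). Of 5 mitochondrial ribosomal genes, all marked UP, all 5 rose, beside 1126 of the 1833 tested promoters marked UP. On the regional scale 1 was higher, Mrpl23 (1.12 ± 0.17 without the offset, 0.49 with it). Of 9 cell cycle inhibitors and p53 genes, 6 of them marked DOWN, 1 rose and 3 fell, against the same 31.6% and 28.7% (1 and 2 on the regional scale). Pmaip1, the apoptosis gene Noxa, had 253 and 199 CPM in WT and 76.2 and 84.6 in cKO (-1.49 ± 0.19).

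The other marks in the same genotypes, each from 4 libraries of its own, moved with or against H3K27ac. At 1189 promoters with higher H3K27ac, H3K4me3 was higher at 1080, 90.8%, and lower at 2, while over all promoters H3K4me3 was higher at 41.1% and lower at 31.5%. At 1080 promoters with lower H3K27ac, H3K4me3 was lower at 835, 77.3%, and higher at 27. The log2 changes of the 2 marks correlated at Pearson r = 0.822 across 3761 promoters, a description across genes that share regional shifts and are not replicates. Of the 1189 higher promoters 1126 were marked UP, and of the 1080 lower 1016 were marked DOWN. The criterion of that selection is unknown, and its part in the shared direction of the marks was not tested. H3K27me3 was lower at 264 of 1187 promoters with higher H3K27ac, 22.2%, and higher at 221 of 1078 with lower H3K27ac, 20.5%. Over all promoters it was higher at 12.9% and lower at 13.7%.

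The regional scale subtracts the same offset, taken from the H3K27ac flanks, from every mark, so part of any difference between the scales follows from that step. Without the offset both H3K27ac and H3K27me3 were higher at 123 promoters and both lower at 39, and with it these counts were 7 and 9. H3K27me3 was then lower at 281 of 833 promoters with higher H3K27ac, 33.7%, and higher at 240 of 928 with lower H3K27ac, 25.9%, against 12.7% lower and 9.63% higher over all promoters. H2AK119ub1 was higher at 393 of the 1189 promoters with higher H3K27ac without the offset, 33.1%, against 17.3% over all promoters, and at 17 of 835 with it, 2.04%, against 4.56%. On both scales 223 promoters had higher H3K27ac and H3K4me3 with lower H3K27me3, and 126 had the reverse. Foxd1 was among the first, with log2 changes of 3.48 in H3K4me3 and -3.05 in H3K27me3 beside 3.76 in H3K27ac. Hoxc13 was among the second, with -3.35 and 2.62 beside -2.76. At Pparg the changes were -2.84 and 1.94 beside -2.37, and at Eya4 -1.50 and 2.67 beside -2.09. At Col1a2 and Runx2 H3K4me3 fell by 3.51 and 4.61 on the log2 scale, while H3K27me3 did not pass the test (0.58 and 0.19, adjusted p = 0.18 and 0.74). With the offset H3K27me3 was called higher at Col1a2 (1.179, adjusted p = 0.00271) and was not called at Runx2 (0.20, adjusted p = 0.764).

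**Figure D3:**
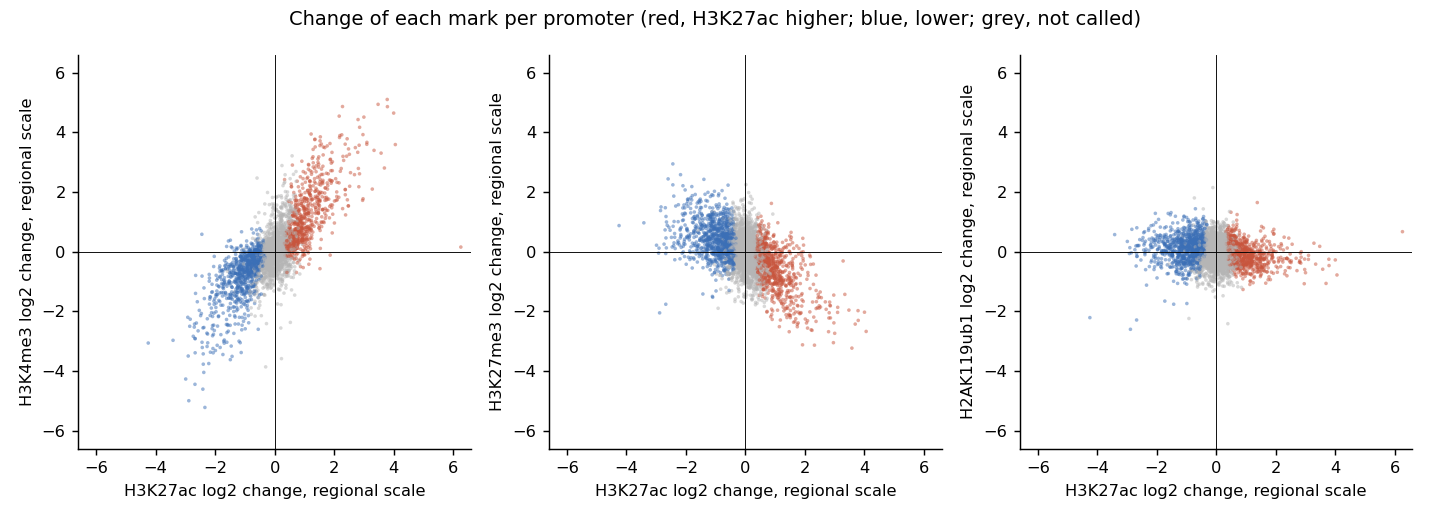
Log2 change (cKO over WT, regional scale) of H3K4me3, H3K27me3 and H2AK119ub1 against that of H3K27ac, with a point for each promoter. Red and blue points are promoters higher and lower in H3K27ac on this scale, 835 and 931 of them. H3K4me3 rises with H3K27ac, H3K27me3 falls with it, and H2AK119ub1 stays within a narrower range. Both axes have the same offset subtracted.

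The 2 active marks changed unequally at some promoters. In a model of both marks, the H3K27ac change was more positive than the H3K4me3 change at 209 of 3772 promoters, 5.54%, and more negative at 503, 13.3%. Without cKO replicate 2 the first count was 359. Rbfa, a ribosome-binding factor gene, had 139 and 155 CPM of H3K27ac in WT and 136 and 151 in cKO (-0.03 ± 0.18), while H3K4me3 changed by -3.84, a difference of 3.82 ± 0.26 (adjusted p = 3.66e-08). At Runx2 and at Ift27, a ciliary transport gene, H3K27ac fell less than H3K4me3, by differences of 2.19 ± 0.19 and 2.88 ± 0.35. Scx went the other way, with 388 and 363 CPM of H3K27ac in WT and 393 and 358 in cKO (0.00 ± 0.14) beside an H3K4me3 change of 2.08, and so did Igfbp6, a secreted binding protein of insulin-like growth factor (0.24 ± 0.15 beside 2.54). At Hhipl1 H3K27ac fell by 2.11 on the log2 scale while H3K4me3 changed by -0.25, which did not pass the test.

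The calls were also counted by the level of the other marks in WT cells. Over all promoters 31.6% rose and 28.7% fell, and on the regional scale 22.2% and 24.8%. Of the 379 promoters in the highest 10% of WT H3K27me3, 182 rose and 29 fell in H3K27ac, 48.0% and 7.65%, and on the regional scale 177 rose and 15 fell. Their median H3K27ac was 45.8 CPM in WT and 70.4 CPM in cKO. In the lowest 10% of WT H3K27me3 the share that rose was about as large, 167 of 351, 47.6%, with 63 lower, and on the regional scale 68 rose and 70 fell. Of the 379 in the highest 10% of WT H3K4me3, 74 rose and 173 fell, 19.5% and 45.6%, and on the regional scale 69 and 109. In the lowest 10% of WT H3K4me3 87 of 351 rose and 23 fell. Of the 379 in the highest 10% of WT H2AK119ub1, 118 rose and 91 fell, 31.1% and 24.0%, near the shares over all promoters. On the regional scale 139 rose and 62 fell, 36.7% and 16.4%, more gains and fewer losses than the 22.2% and 24.8% over all promoters. In the lowest 10% of WT H2AK119ub1 176 of 351 rose, 50.1%, and 44 fell, and on the regional scale 63 and 53.

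The width of the H3K27ac domain was measured as the number of 50 bp bins of the 10 kb window whose 250 bp running mean reached 3 times the library's own level in the outer flanks. Peaks were counted from 0.5 kb. A peak was present at 2492 and 2474 autosomal promoters in WT and 2537 and 2547 in cKO. Their median width was 1.80 and 1.75 kb in WT and 1.65 and 1.60 kb in cKO, without overlap (two-sided exact permutation p = 0.33, the lowest value possible with 2 and 2 libraries). Domains of at least 4 kb numbered 320 and 286 in WT and 272 and 209 in cKO (exact permutation p = 0.33). With a threshold of 5 times the flank level the medians did not differ between genotypes (0.0 kb), and with 2 times the difference was -0.25 kb. The bin threshold was 2.22 to 2.27 CPM per bin in WT and 2.11 to 2.13 in cKO, since the flank level was lower there.

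Peaks were present in all 4 libraries at 2015 promoters. At 246 promoters both WT libraries had a peak and neither cKO library did, 224 of them called lower, and at 291 it was the reverse, 256 of them called higher. Of 2656 promoters tested for width, 518 were wider in cKO, 19.5%, and 667 narrower, 25.1% (limma with Benjamini-Hochberg adjustment). Without cKO replicate 1 these counts were 76 and 287, without cKO replicate 2 94 and 240, without WT replicate 1 169 and 98, and without WT replicate 2 203 and 137, so neither direction is the more frequent in every case. No regional offset was applied to widths, so a regional shift of the level can enter them. Width and level come from the same counts: 481 of the wider promoters had higher and 0 had lower H3K27ac, and 582 of the narrower had lower and 1 had higher. Across the promoters with a peak in all 4 libraries the log2 changes of width and level correlated at r = 0.866, a description across genes.

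The widths of single genes show domains that opened, closed or shrank. Gsc had no peak in WT and domains of 8.55 and 7.70 kb in cKO, and Epha7 0.1 and 0 kb in WT and 6.80 and 6.05 kb in cKO. Cd24a widened from 1.55 and 1.75 kb to 5.6 and 4.75 kb. Col1a2 had domains of 5.80 and 4.50 kb in WT and no bin over the threshold in cKO, and Zfhx4 went from 8.65 and 7.30 kb to 0.45 and 0.30 kb. Fosl1 shrank from 9.3 and 9 kb to 2.55 and 2.60 kb. Hoxc6 filled the window in WT, at 10.0 kb in both libraries, and covered 6.05 and 5.90 kb in cKO, though its promoter level was not lower. Neat1, a long noncoding RNA of nuclear paraspeckles, was named here after its values were seen: it filled the 10.0 kb in all 4 libraries, with a log2 change of -0.03.

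Calls depended little on width over most of its range. With width averaged over both genotypes, promoters of 0.5 to 1 kb had 37.6% higher and 29.0% lower, those of 1 to 2 kb 36.9% and 33.9%, and those of 2 to 4 kb 37.5% and 34.9%. Promoters under 0.5 kb had 19.9% and 16.7%, at a median level of 42.1 CPM in WT. In the 211 promoters of 4 kb or more, 58 rose and 88 fell, 27.5% and 41.7%, with a median log2 change of -0.15, and on the regional scale 46 rose and 66 fell. These widest promoters held 15.7% and 15.3% of the promoter CPM in WT and 14.6% and 13.6% in cKO. When the classes were taken from the H3K4me3 libraries instead, 117 of 325 promoters of 4 kb or more rose and 114 fell, so the excess of losses was not present there. Classes from the WT H3K27ac libraries gave 29 higher and 191 lower of 296, but they choose promoters that were wide in the same WT libraries.

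**Figure D4:**
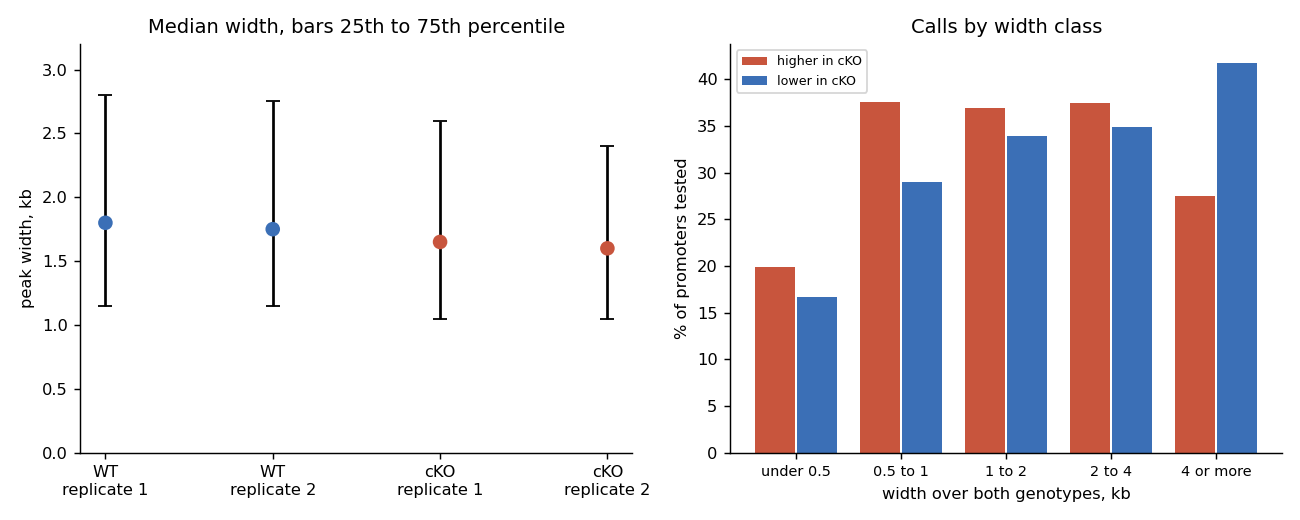
Left, median width in kb of H3K27ac peaks in each library (points; bars, 25th to 75th percentile over promoters with a peak), between 1.60 and 1.80 kb. Right, percent of tested promoters higher (red) and lower (blue) in cKO by width class over both genotypes, with 27.5% higher and 41.7% lower in the class of 4 kb or more.

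Within the window H3K27ac was more concentrated at the gene start in cKO. The share of the counts within 0.5 kb of the start was 25.9% and 27.2% in WT and 30.8% and 30.5% in cKO, a difference of 4.12 percentage points without overlap (exact permutation p = 0.33, two-sided, the smallest possible). The 0.5 kb just downstream of the start rose most, from 15% and 16% to 18.3% and 18.1%. From 2 to 5 kb downstream the WT libraries held 20.1% and 19.7% and the cKO libraries 17.4% and 18%. The share from 5 to 2 kb upstream was 17.1% and 16.9% against 16% and 16.6%. Whether the share of signal over background of each precipitation had a part in this was not tested, and the flank level per bin was 0.755 and 0.739 CPM in WT and 0.704 and 0.711 in cKO.

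The calls by segment use the same counts, scaled on the whole 10 kb windows, so they are not a second observation of this concentration. Within 0.5 kb of the start 1094 promoters were higher and 661 lower, 29.5% and 17.8%. From 0.5 to 2 kb downstream 705 were higher and 902 lower, 19% and 24.3%, and from 2 to 0.5 kb upstream 459 and 550, 12.3% and 14.8%. Scaling each segment by its own TMM factors, which centres each segment by construction, gave 932 higher and 833 lower in the central segment and 836 and 790 downstream. On the regional scale the counts were 764 and 540 in the centre and 447 and 778 from 0.5 to 2 kb downstream. Leaving out cKO replicate 1 gave 207 higher and 356 lower in the upstream segment, leaving out cKO replicate 2 gave 301 and 333, and leaving out WT replicate 1 gave 354 and 352.

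Tested within libraries, the change of the centre was more positive than that of the flanks around it at 322 of 3756 promoters, 8.57%, and more negative at 51, 1.36%, with a median difference of 0.24 on the log2 scale. Without cKO replicate 1 these counts were 171 and 30, without cKO replicate 2 146 and 36, and without WT replicate 1 214 and 34. The median difference was 0.27 at promoters that rose, 0.25 at those that fell and 0.22 at those not called. Osbpl6, a sterol-binding protein gene, rose by 3.76 ± 0.31 at its centre and by 1.98 ± 0.31 downstream, with 0.36 ± 0.44 upstream (difference 2.37 ± 0.38, adjusted p = 0.000145). Arhgef4, a guanine nucleotide exchange factor gene, rose by 4.10 ± 0.42 at the centre (difference 3.06 ± 0.49). At Pdgfrb the centre fell less, by 1.26 on the log2 scale against 3.55 upstream and 2.43 downstream. Cdr2l kept its centre (-0.18 ± 0.20) while both sides fell (-1.43 ± 0.28 and -1.77 ± 0.21). Plcd3, a phospholipase C gene, went the other way, with -2.62 ± 0.27 at the centre and -0.86 ± 0.32 downstream.

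**Figure D5:**
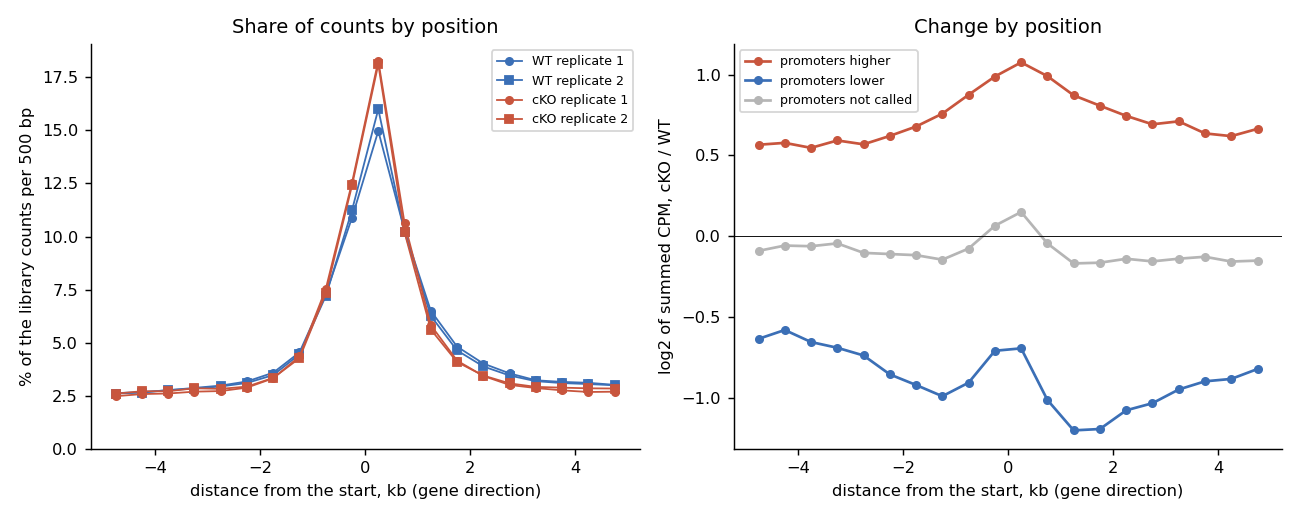
Left, percent of each library's counts per 500 bp by distance from the gene start in kb, with a line for each library (blue, WT; red, cKO). In the 0.5 kb downstream of the start both cKO libraries reach 18.1% or more and the WT libraries 16% or less. Right, log2 ratio of the summed CPM, cKO over WT, by position for promoters higher (red), lower (blue) and not called (grey), which were chosen on the same counts.

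Some promoters changed unequally on the upstream and downstream sides. The downstream side was more positive than the upstream side at 202 of 3743 promoters, 5.4%, and more negative at 204, 5.45%. They were 106 and 105 without WT replicate 1, 134 and 122 without WT replicate 2 and 113 and 132 without cKO replicate 1. Hoxc10 lost H3K27ac upstream (-3.18 ± 0.24 from 2 to 0.5 kb) while the downstream side did not pass the test (0.37 ± 0.21), a difference of 3.60 ± 0.34 (adjusted p = 4.82e-10). Its domain went from 7.95 and 8.15 kb to 2.7 and 2.5 kb. Foxc1, a forkhead factor of the niche, also lost the upstream side (-1.78 ± 0.22, and -3.13 ± 0.22 from 5 to 2 kb) while the downstream side did not pass the test (0.42 ± 0.19), although its promoter call was lost in 3 of the 4 fits that left out a library. At Kctd15 the gain lay downstream (5.39 ± 0.32 against 1.34 ± 0.58 upstream, difference 4.15 ± 0.54), and at Cbarp likewise (2.41 ± 0.24 against -0.11 ± 0.23). Pparg lost the mark at the centre (-2.20 ± 0.33), downstream (-3.40 ± 0.33) and from 5 to 2 kb upstream (-2.63 ± 0.29), while the segment between, from 2 to 0.5 kb upstream, changed by -0.41 ± 0.42. Tnfaip2 and Tdrd7 lost the downstream side, by 3.71 ± 0.37 and 2.85 ± 0.30 on the log2 scale, with upstream changes of -0.11 ± 0.60 and 0.16 ± 0.42.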

How the data were processed

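Chromatin of WT and Bap1 cKO cells was immunoprecipitated for 4 marks and sequenced. Per the file headers, the deposited values are unnormalised counts of reads, for 200 bins of 50 bp that tile 10 kb around each gene start. Trimming and alignment tools named by the submitters' processing notes are Bowtie2 2.4.5 and cutadapt 1.18, with bedtools 2.30.0, SAMtools 1.9 and Picard 2.25.5, on build GRCm38. Among isolated runs of 1 to 5 filled bins 61.0% spanned 3, so each read enters about 3 neighbouring bins. Counted from 1 bin in 3, the libraries held 1006978 to 1320603 reads in these windows, and a shift common to all windows is not detectable. Symbols were assigned to 3390 of 3925 genes from RefSeq (GRCm38.p6), by a gene on the same strand that starts within 500 bp of the window's centre. After a shift of 20 kb a name was found for 121. Promoters of 296 autosomal genes share sequence with another's, and none of these is named without saying so.

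Bins 61 to 140 were summed and tested with edgeR 4.0.16 (R 4.3.3, quasi-likelihood, robust, genotype as the term) on the 4 H3K27ac libraries. Library sizes were autosomal sums times TMM factors from 10 kb windows, the filter was filterByExpr with a minimum count of 10, and Benjamini-Hochberg adjustment ran over all promoters tested, with a threshold of 0.05. Segments and the other marks were tested likewise. Interactions took library or mark as a term. Widths were tested with limma 3.58.1 on log2(bins + 1) for mean widths of at least 10 bins. The regional offset is the median log2 change of H3K27ac in the outer 1 kb flanks (also used for the other marks), with 5 CPM added to each group, over 20 genes on each side. Single values were compared by exact permutation. The tests of promoter change, centre against flank, width and H3K27ac against H3K4me3 were also run on simulated counts with known changes. The regional offset, DESeq2 and the fit of all 16 libraries were not.

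The members, the gene lists and the rule for named genes were chosen with earlier results of these data known. For each direction the rule takes 12 promoters, those with the smallest p among non-overlapping genotypes, of each list the 4 members of lowest p, Cxcl12, Kitl, Pparg and Sox9, and the 4 of lowest p in each direction of each interaction and of the width test, leaving out shared windows and predicted, clone and some receptor names. Other members named in a count or a contrast were chosen after their values were seen, and 2 promoters taken by the rule are not reported here. Alternatives were other scalings, DESeq2 1.42.0, no filter, 1 kb and 5 kb to each side, each library left out, a block for the replicate number, a fit of all 16 libraries, 1 bin in 3, the regional offset, shared windows left out, other width thresholds and other sources of the width classes. Scaling on the outer flanks, a width threshold common to the libraries, and the regional offset for segments and other marks were chosen after seeing the data.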

Additional observations from a re-analysis of the deposited data

How the results depend on the processing

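Under other scalings, DESeq2, other window sizes and all 16 libraries the promoter counts stayed within 1.5 times of 1189 higher and 1080 lower, and leaving out a library gave 973 to 1177 higher and 714 to 1003 lower, with 849 and 612 promoters called in all 4 such fits, in which the lone library is assumed to vary like the other genotype. Same-numbered libraries shared little deviation from their group means (correlation across promoters 0.0661), which cannot tell whether they were prepared together. With the replicate number as a block 1210 promoters were higher, 1104 lower, 498 wider and 659 narrower. Of 173 alternatives of counts and medians 125 stayed within the limit and 47 moved beyond it, and a change of sign is given below. The limit was 1.5 times for counts and a standard deviation between libraries for medians and shares. Leaving out a library gave ranges of 205 to 278 higher and 226 to 382 lower from 5 to 2 kb upstream, 207 to 359 and 333 to 415 from 2 to 0.5 kb upstream, and 324 to 364 and 440 to 588 from 2 to 5 kb downstream. The centre was then more positive than the flanks at 146 to 370 promoters and more negative at 30 to 53, the downstream side was more positive at 2.8% to 3.72% and more negative at 2.77% to 4.01% of autosomal promoters, and the H3K27ac change was more positive than that of H3K4me3 at 186 to 359 and more negative at 355 to 614, while 76 to 203 promoters were wider and 98 to 287 narrower. With the regional offset, the counts higher were 122 and 261 in the far and near upstream segments and 447 and 240 in the near and far downstream segments. With it the groups were 835 promoters with higher and 931 with lower H3K27ac, not 1189 and 1080. In the higher group H3K4me3 was higher at 670, 80.2% against 32.3% over all promoters, and H3K27me3 higher at 7, 0.84% against 9.63%. H2AK119ub1 was higher there at 17, 2.04% against 4.56%, and lower at 64, 7.66% against 6.74%. In the lower group H3K27me3 was lower at 9, 0.97% against 12.7%, and H2AK119ub1 lower at 40, 4.31% against 6.74%. Among 117 named genes the offset turned Rpl24 (0.11), Epop (-0.00076) and Cdkn2b (-0.26). The median width difference was -0.25 kb at 2 times the flank level, 0.0 kb at 5 times, where 405 promoters were narrower, and -0.225 kb with a common threshold. Width classes from the WT libraries had median log2 changes of 0.34 under 0.5 kb, 0.13 at 0.5 to 1 kb, -0.29 at 2 to 4 kb and -0.51 from 4 kb, and those from the H3K4me3 libraries 0.22 at 0.5 to 1 kb and -0.016 at 1 to 2 kb, where the sign turned. The cause of these shifts was not tested. At a median of 371 to 472 counts per promoter and 2 libraries per genotype, small changes at weak promoters are not detectable.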
